A study of Mus musculus with 22 samples.

Results

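The 38 genes described here encode complement and coagulation proteins that hepatocytes make and release into plasma. They were taken from the table by symbol, from a list of liver-made factors drawn up with earlier results of these data known, though by no rule on measured values, and all 38 were found among its 24475 genes and passed the filter on low values that left 11590 genes for testing. Liver mRNA was sequenced in 22 libraries from mice that lacked glucagon (Gcg-/-, labelled KO) or were wild type (WT), each without infusion or infused with glucagon at 30 or 150 µg/d. The groups were Gcg-/- liver without infusion (3 libraries), WT liver without infusion (3), Gcg-/- liver at 30 µg/d (4), WT liver at 30 µg/d (4), Gcg-/- liver at 150 µg/d (4) and WT liver at 150 µg/d (4). The question behind the design is how glucagon, a hormone of pancreatic alpha cells that hepatocytes sense with the receptor Gcgr, takes part in the division of metabolic work along the liver lobule. The labels state neither strain, age and sex nor the route and length of infusion, and do not say whether uninfused mice received vehicle. Nor do they tie each library to its own mouse. The p-values therefore reflect how far these libraries differ within a group, which may be technical in part. The running numbers of the titles, 1 to 22, serve as library names.

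Complement is a cascade of plasma proteases and their substrates. Antibody-bound C1 (classical pathway) or carbohydrate-bound lectins with their MASP proteases cut C4 and C2, the alternative pathway adds factor B, all routes cut C3, and C5 to C9 then assemble the membrane attack complex. Coagulation is another protease cascade, in which vitamin K-dependent factors lead to thrombin, thrombin turns fibrinogen into fibrin, and factor XIII cross-links it, while antithrombin, the protein C system and plasmin limit the clot. Hepatocytes are the main source of most of these proteins, and several, fibrinogen and C3 among them, are acute phase proteins, whose genes respond to interleukin-6 through Stat3 and to C/EBP factors.

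Expression is given as RPKM, which divides reads by transcript length in kilobases and by the library's total, so that levels can be set beside each other. Dividing by the total does not correct for differences in composition between libraries, so other scalings were also run. Depth was estimated from the steps between low values at 11.18 to 17.8 M reads per library, and 1 read on a transcript of 1 kb was then worth 0.056 to 0.089 RPKM, far under the level of every gene on the list. Fold changes are differences of mean log2(RPKM + 1) with limma's moderated SE, and a gene was called at a Benjamini-Hochberg adjusted p under 0.05 over all 11590 genes. Spread over libraries is given as the SD of RPKM. The hepatocyte markers Alb, Apoa1, Ttr, Apob and Hnf4a were present in every library. Gcg was at 0 in all 22 libraries, WT liver included, so it gave no check of the genotype labels, and Gcgr averaged 83 ± 11 RPKM in uninfused Gcg-/- liver and 89.8 ± 3.83 RPKM in uninfused WT liver (SD, n = 3 each). In bulk tissue, fewer cells of a type and less mRNA per cell cannot be told apart.

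Together the 38 mRNAs made up 3.07 to 5.39% of a library's summed RPKM. The fibrinogen chains Fga and Fgb led with means of 3111.1 and 3063.3 RPKM over the 22 libraries, followed by C3, the central complement protein (2344.8 RPKM), the third fibrinogen chain Fgg (2218.8 RPKM), the kininogen Kng1 (1617.1 RPKM), vitronectin Vtn (1444.8 RPKM) and plasminogen Plg (1018.8 RPKM). The least abundant were the lectin-pathway protease Masp1 (44.3 RPKM), coagulation factor XI (F11, 39.3 RPKM) and protein S (Pros1, 26.3 RPKM). The 3 fibrinogen chains alone took 0.922 to 2.47% of the summed RPKM.

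**Figure D1:**
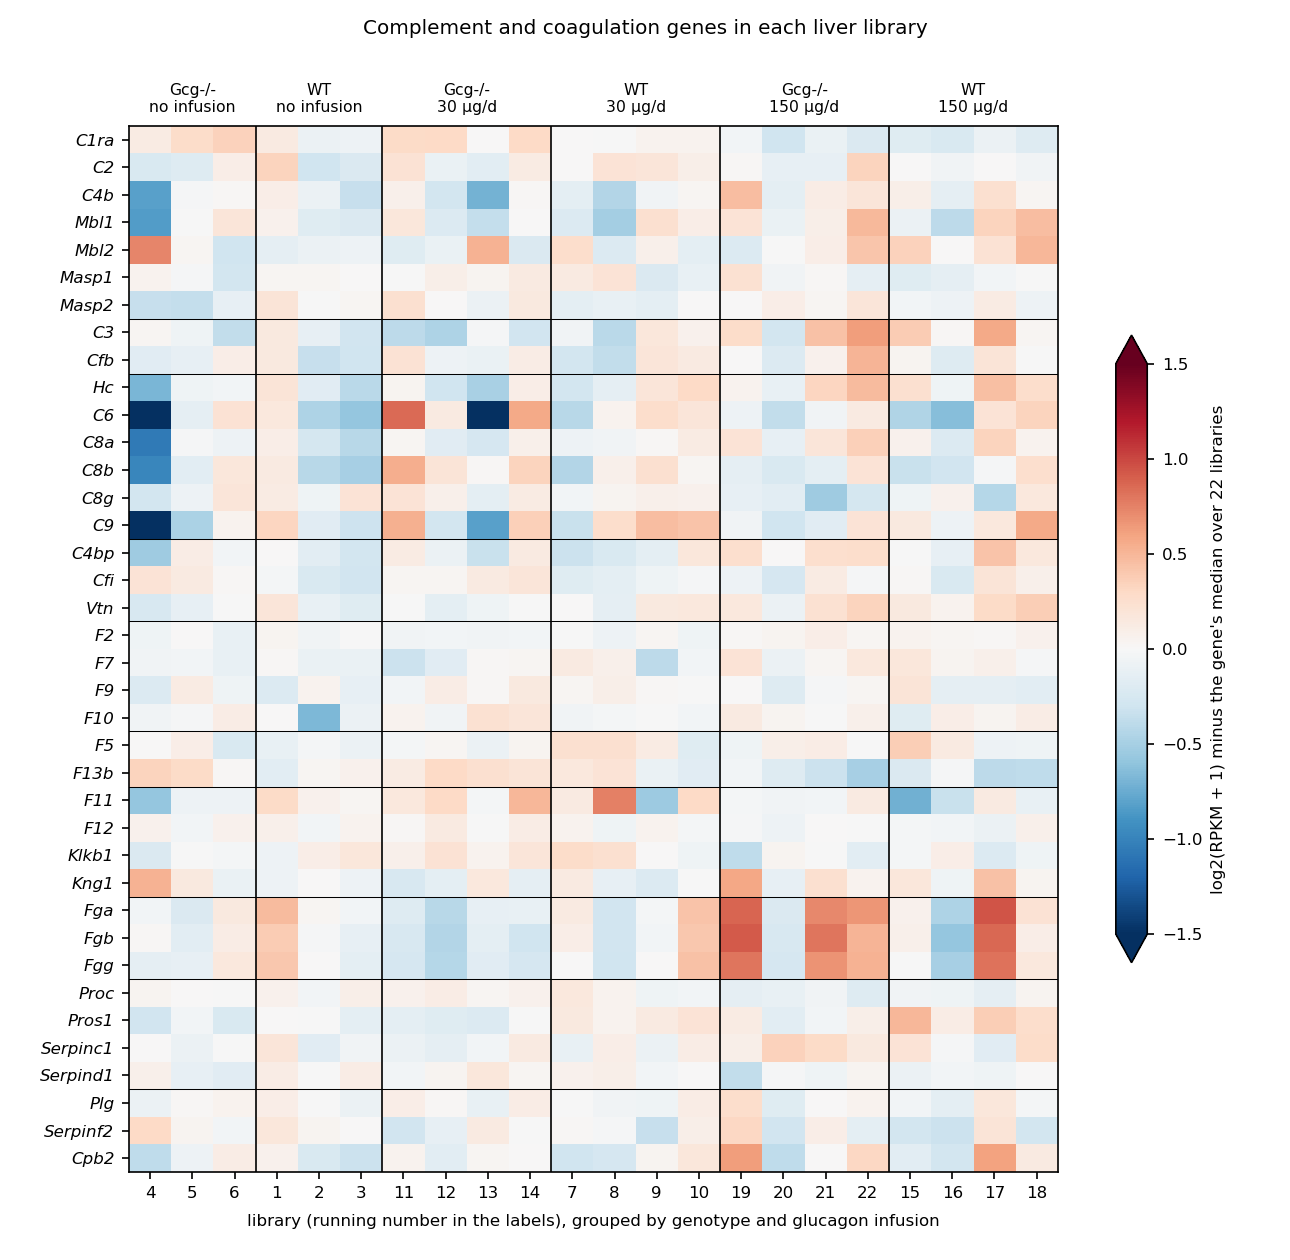
Deviation of each of the 38 genes (rows, grouped by role, from the classical pathway at the top to fibrinolysis at the bottom) in each of the 22 libraries (columns, grouped by genotype and dose) from the gene's median, as log2(RPKM + 1); colours saturate at 1.5. C6 and C9 are low in libraries 4 and 13, the fibrinogen rows are high in libraries 17, 19, 21 and 22, and the rows of F2 and F12 are nearly even.

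Libraries 4 (uninfused Gcg-/-) and 13 (Gcg-/- at 30 µg/d) stood apart from the others of their groups. A set of male-patterned liver genes averaged 4.5 and 5.94 log2 units in them, against 7.04 to 8.31 in the other 20 libraries, and a female-patterned set summed to 426.7 and 93.8 RPKM, against 1.07 to 11.2 RPKM. Y-linked genes were present in every library, at a sum of 29.9 to 49.8 RPKM. These sets were put together after the values were seen, and the labels give no reason for the difference. For the genes of the list whose fold changes moved most, the value without library 4, or without both, stands beside the result.

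Glucagon at 150 µg/d in Gcg-/- liver was the main comparison with calls on the list. C1ra, which encodes the C1r protease of the complex that opens the classical pathway, and F13b, the carrier subunit of the fibrin cross-linking factor XIII, fell, and Masp2, the protease that starts the lectin pathway by cutting C4 and C2, rose, each by less than 1.5-fold. These 3 of 38 genes (7.89%) compare with 2.72% of all tested genes called in the same comparison. The median log2 fold change of the 38 was 0.15, against -0.04 over all tested genes, with 27 above 0 and 11 below. It was 0.20 with 30 above 0 under median-of-ratios scaling and 0.09 with 24 above 0 after quantile normalization.

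C1ra was at 154.2, 128.3, 148.4 and 136.2 RPKM in Gcg-/- liver at 150 µg/d, against 172.7, 191.5 and 200.9 RPKM in uninfused Gcg-/- liver. The groups did not overlap, and the 4 WT libraries at 150 µg/d, at 135.4 to 149.0 RPKM, lay in the range of the infused Gcg-/- libraries. The log2 fold change was -0.41 ± 0.09 (limma, adjusted p = 0.0216), from 141.8 ± 11.7 RPKM (SD, n = 4) in infused and 188.4 ± 14.4 RPKM (SD, n = 3) in uninfused Gcg-/- liver. Gcg-/- libraries infused at 30 µg/d had 193.4, 194.4, 159.4 and 195.5 RPKM, and 150 against 30 µg/d within Gcg-/- liver gave -0.39 ± 0.08 (limma, adjusted p = 0.0411), where 0.544% of all tested genes were called. The call against no infusion ended without library 5, 6, 20 or 22, under median-of-ratios scaling (adjusted p = 0.0519) and with the groups fitted alone (adjusted p = 0.19). That against 30 µg/d ended without any 1 of 11 libraries (2, 3, 5, 7, 11, 12, 14, 18, 20, 21 and 22), under both scalings and with the groups fitted alone, at adjusted p-values of up to 0.222. Reads of the near-identical neighbour C1rb could have been divided between the copies, but C1rb itself was listed at only 0.748 RPKM in infused and 0.818 RPKM in uninfused Gcg-/- liver.

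Masp2 was at 123.3, 130.6, 125.3 and 139.2 RPKM in Gcg-/- liver at 150 µg/d, against 95.7, 95.4 and 112.0 RPKM in uninfused Gcg-/- liver. Every infused library was above every uninfused one. The means were 129.6 ± 7.12 RPKM (SD, n = 4) and 101.0 ± 9.5 RPKM (SD, n = 3), a log2 fold change of 0.36 ± 0.09 (limma, adjusted p = 0.0384). The call ended without library 3, 4, 5, 20, 21 or 22, without libraries 4 and 13 together, under quantile normalization and with the groups fitted alone, with adjusted p-values of 0.0505 to 0.209. The 3′ part of Masp2 overlaps the convergent gene Tardbp, listed at a mean of 7.43 RPKM, over 3118 bases, and whether counting used strand is not given in the sources used here.

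F13b was at 83.2, 75.2, 68.2 and 60.3 RPKM in Gcg-/- liver at 150 µg/d, against 108.8, 105.0 and 87.2 RPKM in uninfused Gcg-/- liver. Every infused library was below every uninfused one. The log2 fold change was -0.48 ± 0.12 (limma, adjusted p = 0.0399), from 71.7 ± 9.79 RPKM (SD, n = 4) and 100.3 ± 11.5 RPKM (SD, n = 3). Against 30 µg/d in Gcg-/- liver (99.8 ± 5.41 RPKM) it was -0.48 ± 0.11 (limma, adjusted p = 0.0603). The call ended without library 2, 3, 4, 5, 14, 20, 21 or 22, without libraries 4 and 13, under median-of-ratios scaling, without the filter on low values and with the groups fitted alone, with adjusted p-values of 0.0505 to 0.21.

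**Figure D2:**
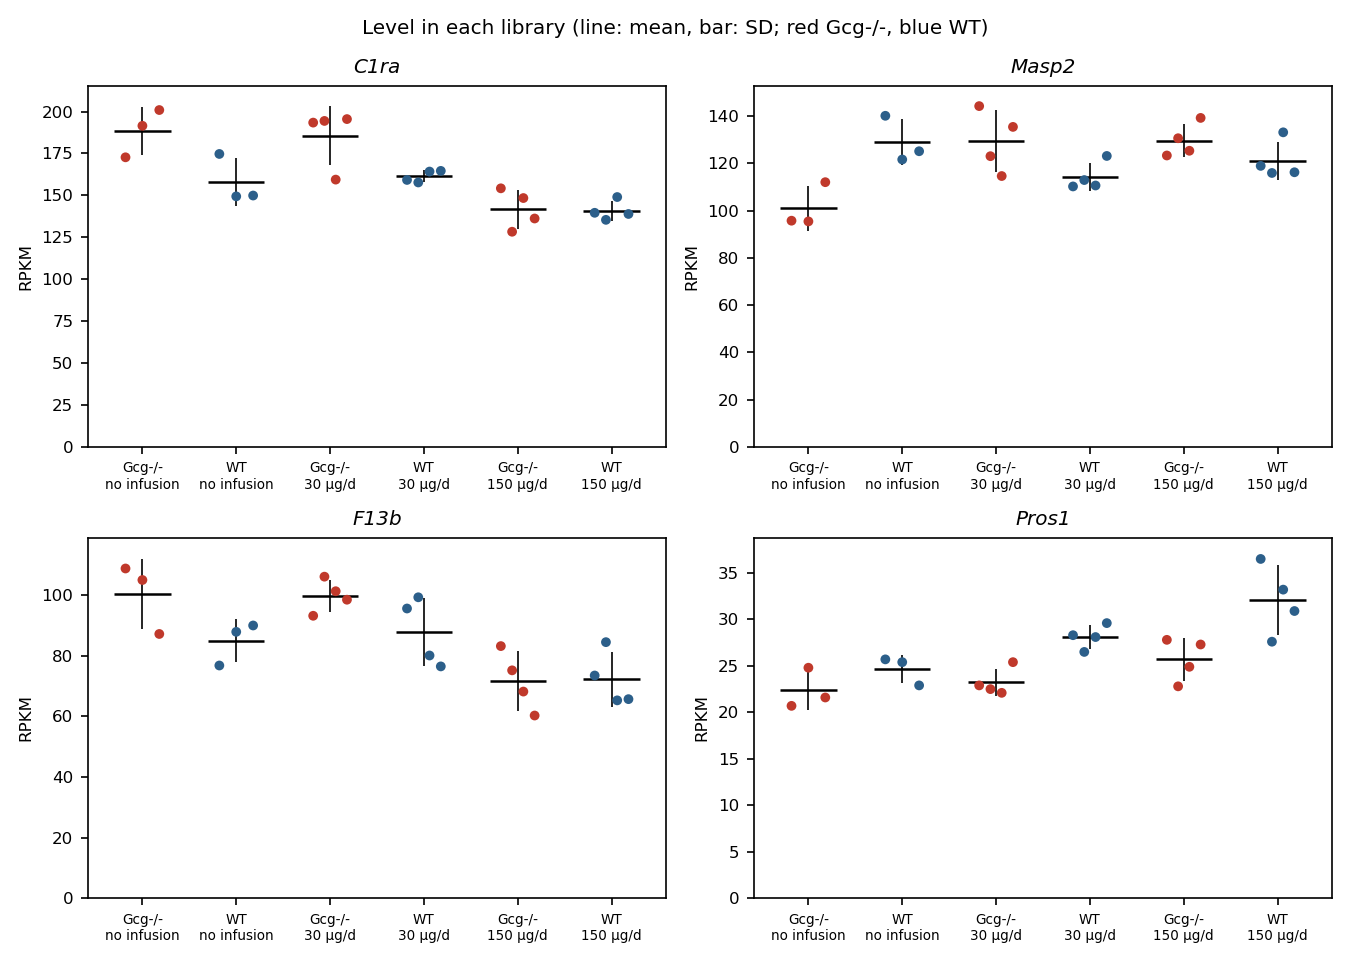
RPKM of C1ra, Masp2, F13b and Pros1 in each library (points), by genotype and glucagon dose, with the group mean (line) and SD (bar). For C1ra and F13b both groups at 150 µg/d lie low, with means of 141.8 and 140.7 RPKM for C1ra and 71.7 and 72.3 RPKM for F13b in Gcg-/- and WT liver; for Masp2 the uninfused Gcg-/- libraries lie low, at 95.4 to 112.0 RPKM.

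The bases before a transcript start of these 3 genes are shown because they carry the calls. They are RefSeq sequences of build GRCm38.p6, the 250 bases before the start used in the RefSeq promoter table, read 5′ to 3′ on the strand of the gene. That start is the first base of the RefSeq gene for C1ra, but it lies 7922 bases inside the RefSeq span of Masp2 and 160 bases inside that of F13b, so other transcripts of these genes begin further upstream. The GENCODE start was 10 bases away for Masp2, 5 for F13b and 216, upstream, for C1ra. All matches given below for C1ra therefore lie after its GENCODE start. Capitals mark matches, on either strand, to letters associated with cAMP signalling (TGACG, the core of a cAMP response element), the interleukin-6 response (CTGGGA), C/EBP factors (TTGCNNAA) and HNF1 (GTTAAT). All 3 genes lie on the plus strand, Masp2 with its start region at chr4:148602294-148602543, C1ra at chr6:124512371-124512620 and F13b at chr1:139501457-139501706.
Masp2: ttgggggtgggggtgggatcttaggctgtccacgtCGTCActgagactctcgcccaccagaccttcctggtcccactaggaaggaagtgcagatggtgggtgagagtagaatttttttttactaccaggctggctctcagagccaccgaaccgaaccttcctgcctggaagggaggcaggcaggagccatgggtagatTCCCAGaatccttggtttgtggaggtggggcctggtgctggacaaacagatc
C1ra: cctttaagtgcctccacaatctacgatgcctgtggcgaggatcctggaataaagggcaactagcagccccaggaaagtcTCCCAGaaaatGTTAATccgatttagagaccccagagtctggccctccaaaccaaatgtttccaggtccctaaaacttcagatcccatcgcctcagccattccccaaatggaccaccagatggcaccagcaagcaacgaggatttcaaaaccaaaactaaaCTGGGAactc
F13b: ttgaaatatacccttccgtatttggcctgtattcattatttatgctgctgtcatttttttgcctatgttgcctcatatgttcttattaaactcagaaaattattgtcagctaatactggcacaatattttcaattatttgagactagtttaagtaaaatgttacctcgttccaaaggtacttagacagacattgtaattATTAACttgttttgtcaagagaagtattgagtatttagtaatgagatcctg
Masp2 had CGTCA, the cAMP core on the opposite strand, at -215 to -211 from the start and an interleukin-6 response match at -52 to -47. C1ra had interleukin-6 response matches at -171 to -166 and -10 to -5 and an HNF1 match at -160 to -155, and F13b an HNF1 match at -51 to -46. In the 50 bases after the start, which are not shown, F13b had the cAMP core TGACG at 44 to 48. C1ra had a C/EBP match there, at 17 to 24. A match is a description of letters and no evidence of binding.

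Without infusion, no gene of the list was called between Gcg-/- and WT liver (limma, adjusted p under 0.05), where 1.54% of all tested genes were. At an unadjusted p under 0.05 there were 3 of the 38, and 2025 of 11590 genes over the table. The median log2 fold change was -0.05 for the list and 0.01 for all genes, with 11 above 0 and 27 below, but 0.02 with 22 above 0 after quantile normalization. For 36 of the 38 genes the 95% interval of the fold change lay within 2-fold in either direction, as it did for 91.6% of all tested genes. RPKM did not overlap between the genotypes for 3 of the 38, with Cfi higher and F11 and Masp2 lower in Gcg-/- liver, while 24.8% of all tested genes did not overlap.

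Masp2 had the smallest adjusted p of the list in that comparison. It was at 95.7, 95.4 and 112.0 RPKM in uninfused Gcg-/- liver, against 140.1, 121.6 and 125.1 RPKM in uninfused WT liver, a log2 fold change of -0.35 ± 0.10 (limma, adjusted p = 0.0681). Cfi, the factor I protease that inactivates C3b and C4b, was at 398.2, 378.6 and 350.4 RPKM in Gcg-/- liver, against 338.5, 294.8 and 283.6 RPKM in WT liver, with a log2 fold change of 0.30 ± 0.11 (limma, adjusted p = 0.165). The genotypes were apart in every library for both genes, and neither passed the test. Masp2 passed when libraries were weighted by quality (limma, adjusted p = 0.0163) and without library 6 (limma, adjusted p = 0.0389). Calls over all tested genes rose from 179 to 945 with these weights and to 294 without library 6.

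The 3 largest fold changes without infusion were those of C6, C9 and F11. F11 was at 25.1, 35.9 and 36.1 RPKM in Gcg-/- liver, against 46.5, 39.9 and 38.8 RPKM in WT liver, with a log2 fold change of -0.37 ± 0.24 (limma, adjusted p = 0.456), which was -0.20 ± 0.27 without library 4. C6 and C9, which insert into the membrane attack complex, had log2 fold changes of -1.01 ± 0.78 and -0.82 ± 0.42 (limma, adjusted p = 0.537 and 0.32). Both rested on library 4, as the values without it show.

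C6 was at 8.55 RPKM in library 4, against 138.3 and 176.4 RPKM in the other uninfused Gcg-/- libraries and 169.7, 110.2 and 100.8 RPKM in uninfused WT liver. At 30 µg/d it was at 275.4, 167.3, 36.7 and 225.2 RPKM in Gcg-/- liver, with the lowest value in library 13, against 113.4, 157.7, 182.0 and 172.4 RPKM in WT liver. At 150 µg/d it was at 143.8, 117.0, 146.1 and 166.9 RPKM in Gcg-/- liver and at 110.5, 97, 175.7 and 191.1 RPKM in WT liver. Outside libraries 4 and 13 no library was below 97 RPKM, so the median of the other 20 was 19 times the value in library 4 and 4.43 times that in library 13. Without library 4 the uninfused genotype difference of C6 turned to 0.34 ± 0.55 (limma, adjusted p = 0.86).

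C9 was at 82.3 RPKM in library 4, against 271.2 and 392.3 RPKM in the other uninfused Gcg-/- libraries and 472.2, 335.6 and 306.0 RPKM in uninfused WT liver. At 30 µg/d it was at 550.2, 313.4, 215.5 and 484.4 RPKM in Gcg-/- liver, against 299.6, 454.8, 522.7 and 508.4 RPKM in WT liver. Libraries 4 and 13 were again the lowest of all 22. Without library 4 the uninfused genotype difference was -0.16 ± 0.33 on the log2 scale (limma, adjusted p = 0.891).

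Libraries 4 and 13 were both below all other 20 libraries for 5 of the 38 genes, namely C6, C9, C4b, Hc and C4bp, and for 262 of the 11590 tested genes (2.26%). Hc, the mouse gene of C5, was at 204.9 and 234.6 RPKM in them, against 248.9 to 457.0 RPKM elsewhere. C4b was at 253.8 and 273.1 RPKM, against 330.2 to 617.8 RPKM. Its close copy C4a, between which reads could have been divided, was at 0.755 RPKM in library 4 and 0.523 RPKM in library 13, against 4.46 to 45.4 RPKM elsewhere. C4bp, a cofactor for the breakdown of C4b, was at 228.1 and 261.1 RPKM, against 263.6 to 442.9 RPKM. Mbl2, a mannose-binding lectin, went the other way, with 365.0 and 314.0 RPKM in these libraries and 178.2 to 309.1 RPKM in the rest. C8a and C8b, which encode chains of C8, were at 158.5 and 112.3 RPKM in library 4, each the lowest value of the 22, while library 13 had 279.6 and 225.5 RPKM, inside the range of the others. The part of the male- and female-patterned difference in these values was not tested.

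**Figure D3:**
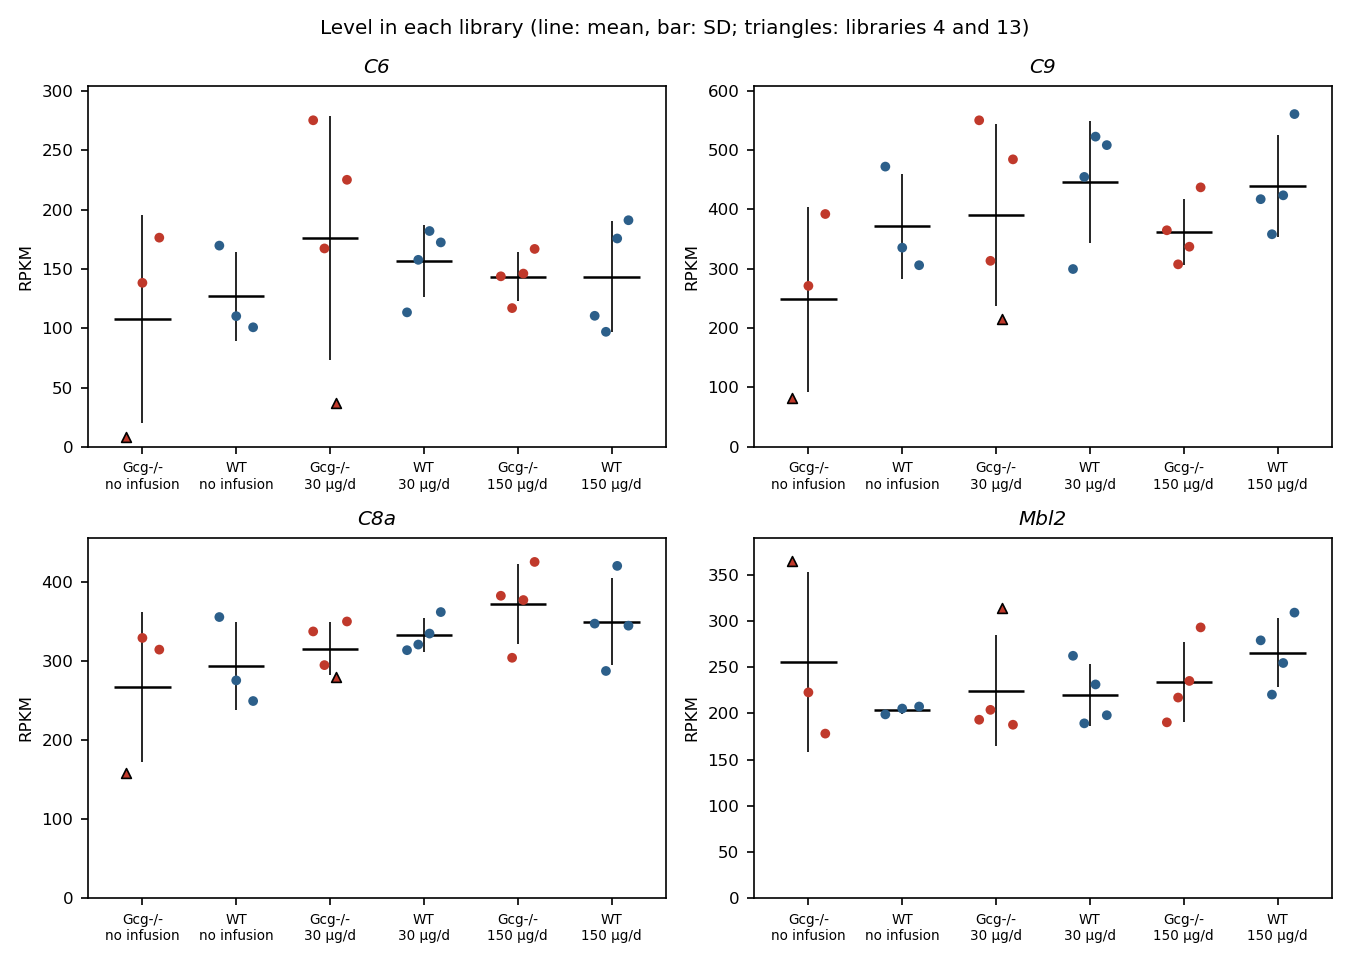
RPKM of C6, C9, C8a and Mbl2 in each library (points; triangles are libraries 4 and 13), by genotype and glucagon dose, with the group mean (line) and SD (bar). C6 lies at 8.55 and 36.7 RPKM in the marked libraries and at 97 RPKM or more elsewhere, while Mbl2 is highest in them.

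In WT liver, 30 µg/d gave no call on the list and none over the table (limma, adjusted p under 0.05, 0% of tested genes), with 0 of the 38 genes and 657 of 11590 at an unadjusted p under 0.05. The median log2 fold change was 0.03 for the list (0.07 after quantile normalization) and -0.01 for all genes. The largest fold changes were those of C6 at 0.31 ± 0.73, C9 at 0.26 ± 0.39 and C8b at 0.24 ± 0.23 (limma, adjusted p = 0.97, 0.949 and 0.908). They ran from 0.17 without library 3 to 0.54 without library 1 for C6, from 0.13 to 0.44 for C9 and from 0.12 to 0.44 for C8b without the same libraries. C8b was at 164.0, 234.1, 261.9 and 226.6 RPKM in WT liver at 30 µg/d, against 244.3, 165.7 and 156.9 RPKM in uninfused WT liver, and the groups overlapped, as they did for C6 and C9. Of the 38 genes only Pros1 did not overlap, and 7.49% of all tested genes did not.

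In WT liver at 150 µg/d no gene of the list was called either (limma, adjusted p under 0.05), with 0.293% of all tested genes called, and 2 of the 38 genes and 1405 of 11590 were at an unadjusted p under 0.05. The median log2 fold change was 0.11 for the list and -0.02 for all genes, and the 95% interval lay within 2-fold for 36 of 38. The RPKM of the groups did not overlap for 4 of the 38, with Mbl2 and Pros1 higher and C1ra and Masp1 lower at 150 µg/d, against 14.5% of all tested genes.

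Pros1, which encodes protein S, the cofactor of activated protein C, was at 36.5, 27.6, 33.2 and 30.9 RPKM in WT liver at 150 µg/d, against 25.7, 25.4 and 22.9 RPKM in uninfused WT liver. Every infused library was higher, with means of 32.1 ± 3.74 RPKM (SD, n = 4) and 24.7 ± 1.55 RPKM (SD, n = 3), and a log2 fold change of 0.36 ± 0.09 (limma, adjusted p = 0.11). It passed the test when libraries were weighted by quality (limma, adjusted p = 0.0246), where calls over all tested genes rose from 34 to 438. At 30 µg/d it was at 28.3, 26.5, 28.1 and 29.6 RPKM, so the means of the 3 WT groups stood in the order of their doses, and neither step between neighbouring doses passed the test.

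Mbl2 was at 279.1, 220.4, 254.6 and 309.1 RPKM in WT liver at 150 µg/d, against 199.0, 205.3 and 207.5 RPKM in uninfused WT liver, with a log2 fold change of 0.37 ± 0.21 (limma, adjusted p = 0.507). F11 was at 22.6, 29.9, 41.8 and 35.2 RPKM at 150 µg/d, against 46.5, 39.9 and 38.8 RPKM, with -0.39 ± 0.23 (limma, adjusted p = 0.516), which was -0.23 without library 15 and -0.52 without library 17. The groups were apart for Mbl2 and overlapped for F11.

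In Gcg-/- liver, 30 µg/d gave no call on the list (limma, adjusted p under 0.05), where 0.0863% of all tested genes were called, and 3 of 38 and 1174 of 11590 were at an unadjusted p under 0.05. RPKM did not overlap for 4 of the 38, with F11, Klkb1 and Masp2 higher and Fgg lower at 30 µg/d, against 8.76% of all tested genes. Masp2 was at 144.2, 123.0, 114.6 and 135.4 RPKM at 30 µg/d in Gcg-/- liver, and its log2 fold change over the uninfused Gcg-/- libraries was 0.35 ± 0.09 (limma, adjusted p = 0.158). That is close to the 0.36 seen at 150 µg/d, a comparison that shares the same 3 uninfused libraries.

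The largest fold changes at 30 µg/d in Gcg-/- liver were in the terminal pathway. C6 had a log2 fold change of 1.19 ± 0.73, C9 of 0.82 ± 0.39 and C8b of 0.60 ± 0.23 (limma, adjusted p = 0.598, 0.483 and 0.394). C8b was at 325.3, 255.1, 225.5 and 280.7 RPKM at 30 µg/d, against 112.3, 198.2 and 249.6 RPKM in uninfused Gcg-/- liver, and these overlapped. Without library 4 the log2 fold changes were -0.16 for C6, 0.17 for C9 and 0.27 for C8b, and without libraries 4 and 13 they were 0.48, 0.42 and 0.36. At 150 µg/d C6 gave 1.21 ± 0.73 with all libraries (limma, adjusted p = 0.39) and -0.13 ± 0.52 without library 4.

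**Figure D4:**
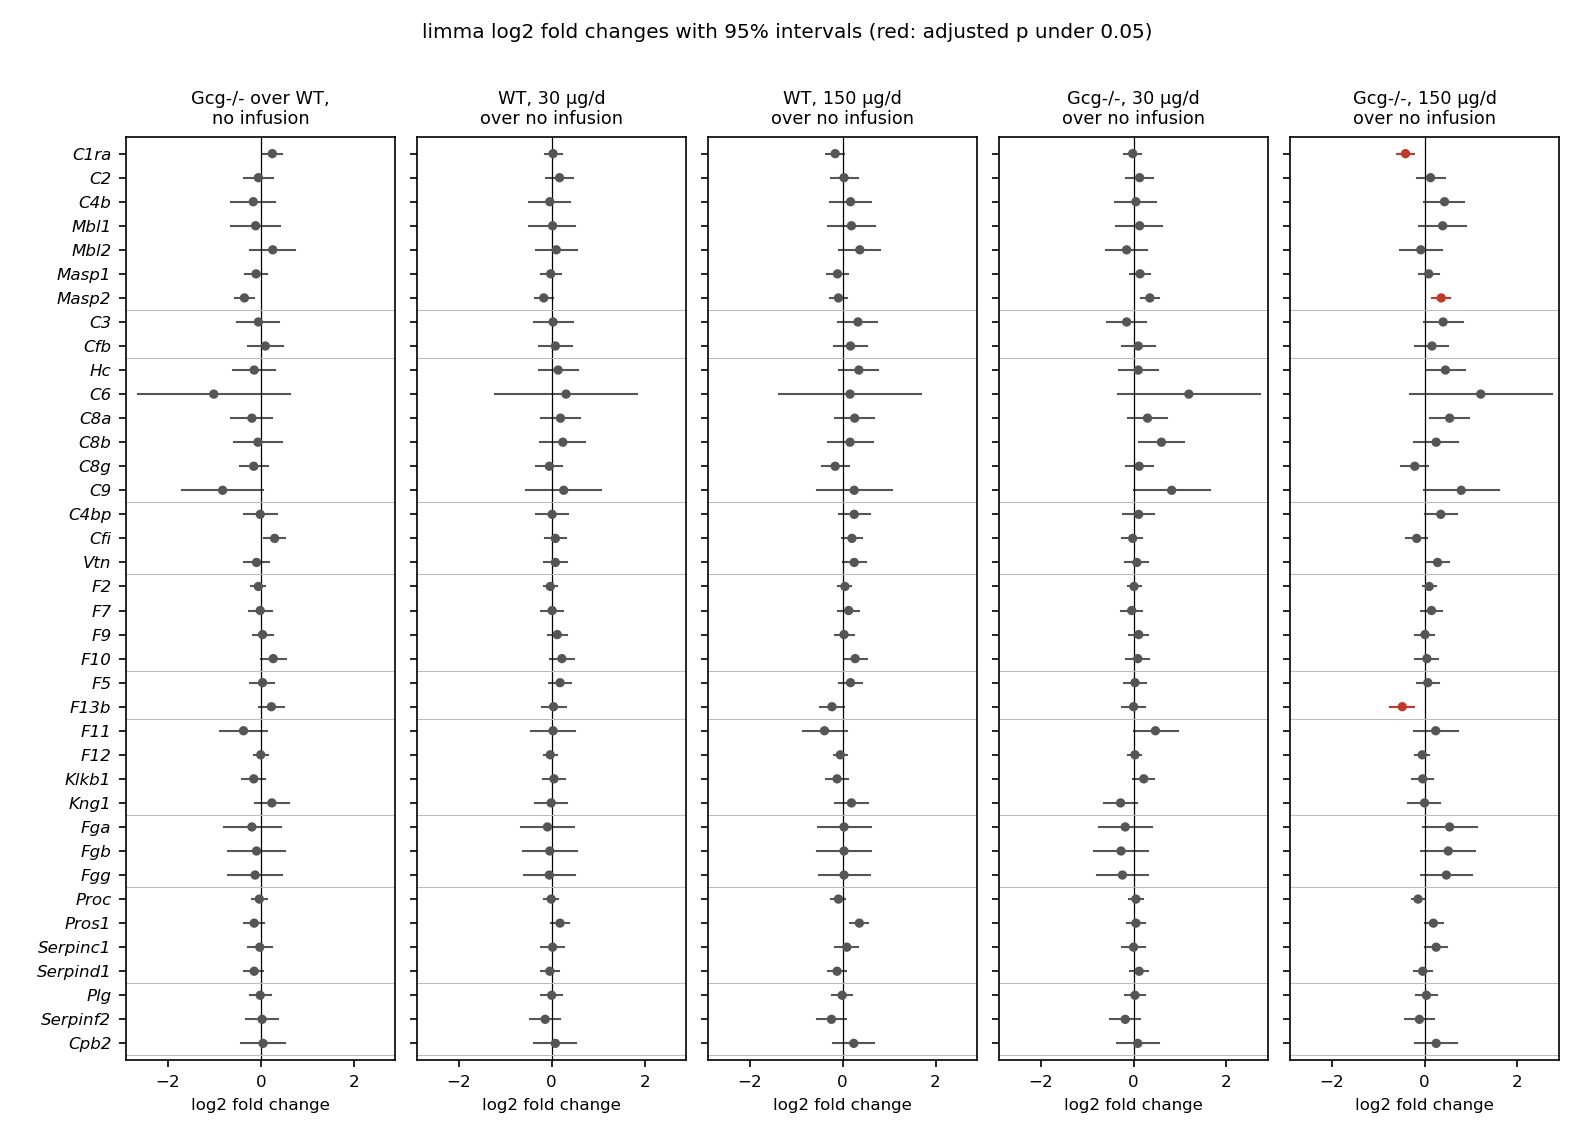
limma log2 fold changes (points) with 95% intervals (lines) of the 38 genes in the 5 comparisons with an uninfused group, on log2(RPKM + 1), rows grouped by role as in the heat map. Red marks C1ra, Masp2 and F13b, which passed the adjusted threshold at 150 µg/d in Gcg-/- liver; C6 and C9 have the widest intervals.

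Whether a dose acted differently in the genotypes was tested by the difference of the responses, Gcg-/- minus WT. No gene of the list passed at 30 or at 150 µg/d, where 1 and 0 genes of the table did (0.00863% and 0%), and 1 and 2 of the 38 were at an unadjusted p under 0.05, against 1045 and 1187 of 11590. The smallest adjusted p was that of Masp2 at both doses, with log2 differences of 0.52 ± 0.13 at 30 µg/d (limma, adjusted p = 0.196) and 0.45 ± 0.13 at 150 µg/d (limma, adjusted p = 0.223). WT liver had 128.9 ± 9.87 RPKM of Masp2 without infusion (SD, n = 3), 114.2 ± 6.05 RPKM at 30 µg/d and 121.0 ± 8.15 RPKM at 150 µg/d (SD, n = 4 each). Between the genotypes at the same dose no gene of the list passed (limma, adjusted p under 0.05), where 0.328% of all tested genes did at 30 µg/d and 0.0259% at 150 µg/d. At an unadjusted p under 0.05 there were 2 of the 38 and 1383 of 11590 genes at 30 µg/d. At 150 µg/d there were 1 of the 38 and 231 of 11590. Pros1 came nearest at 150 µg/d, at 25.7 ± 2.31 RPKM in Gcg-/- and 32.1 ± 3.74 RPKM in WT liver (SD, n = 4 each), with a log2 fold change of -0.31 ± 0.09 (unadjusted p = 0.00213, limma, adjusted p = 1).

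The 3 fibrinogen genes are neighbours on chromosome 3, with 11.1 kb between Fgg and Fga and 8.62 kb between Fga and Fgb, Fgb on the minus strand and the others on the plus strand. Their mRNAs kept nearly fixed proportions. The ratio of Fgb to Fga lay between 0.88 and 1.07 over the 22 libraries, with a median of 0.99, and that of Fgg to Fga between 0.67 and 0.79, with a median of 0.72. Over the same libraries Fga ranged 2.66-fold, Fgb 2.82-fold and Fgg 2.49-fold.

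Fga was at 5060.9, 2367.8, 4535.5 and 4376.8 RPKM in Gcg-/- liver at 150 µg/d, against 2679.0, 2379.9 and 3063.1 RPKM in uninfused Gcg-/- liver. Of the infused libraries, 19, 21 and 22 were above all uninfused ones and library 20 was below them. The log2 fold change was 0.54 ± 0.28 for Fga, 0.51 ± 0.28 for Fgb and 0.47 ± 0.26 for Fgg (limma, adjusted p = 0.299, 0.337 and 0.348), so none passed. In WT liver Fga was at 2876.6, 1992.1, 5304.3 and 3205.2 RPKM at 150 µg/d, against 3842.6, 2812.2 and 2678.5 RPKM without infusion, with 0.03 ± 0.28 (limma, adjusted p = 0.982). Between 150 and 30 µg/d in Gcg-/- liver the log2 fold changes were 0.72 ± 0.25 for Fga, 0.78 ± 0.26 for Fgb and 0.72 ± 0.24 for Fgg (limma, adjusted p = 0.215, 0.184 and 0.193). The residual SD over libraries of the same group was 0.36 to 0.38 log2 units for the 3 chains, against a median of 0.16 over all tested genes.

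The fibrinogen start regions are shown because the 3 mRNAs varied together from library to library, and this choice was made after the values were seen. Marks and build are as above, with Fgg at chr3:83007474-83007723 and Fga at chr3:83025903-83026152 on the plus strand, and Fgb at chr3:83049864-83050113 on the minus strand.
Fgg: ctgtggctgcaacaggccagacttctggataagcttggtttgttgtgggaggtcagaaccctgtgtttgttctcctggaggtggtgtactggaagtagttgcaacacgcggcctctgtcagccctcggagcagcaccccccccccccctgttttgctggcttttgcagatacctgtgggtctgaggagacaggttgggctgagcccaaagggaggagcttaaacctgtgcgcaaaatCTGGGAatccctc
Fga: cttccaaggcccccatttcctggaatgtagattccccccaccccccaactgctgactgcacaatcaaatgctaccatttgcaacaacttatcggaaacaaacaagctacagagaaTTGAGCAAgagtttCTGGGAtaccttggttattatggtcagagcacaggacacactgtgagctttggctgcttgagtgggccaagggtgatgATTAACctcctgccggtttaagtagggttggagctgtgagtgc
Fgb: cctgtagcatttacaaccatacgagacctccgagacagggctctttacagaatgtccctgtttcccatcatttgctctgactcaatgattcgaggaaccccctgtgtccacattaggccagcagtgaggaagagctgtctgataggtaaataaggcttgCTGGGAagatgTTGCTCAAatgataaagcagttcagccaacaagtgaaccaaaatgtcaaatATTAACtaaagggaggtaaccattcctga
Each held an interleukin-6 response match, at -13 to -8 in Fgg, -121 to -116 in Fga and -91 to -86 in Fgb. Another lay after the start of Fgb, at 45 to 50, outside the bases shown. Fga and Fgb also held a C/EBP match, at -135 to -128 and -80 to -73, and an HNF1 match, at -43 to -38 and -29 to -24. The GENCODE start was the one used here for Fgg and Fgb but lay 77 bases upstream for Fga. The HNF1 match of Fga therefore lies after its GENCODE start.

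Saa1, the acute phase serum amyloid, was chosen after the values were seen as a gene to set beside fibrinogen. It was at 8245.3, 169.4, 3784.1 and 5233.7 RPKM in Gcg-/- liver at 150 µg/d, against 46.4, 137.1 and 536.5 RPKM in uninfused Gcg-/- liver, with a log2 fold change of 3.92 ± 1.5 (limma, adjusted p = 0.166). WT liver had 639.4, 583.7, 7145.4 and 1020.6 RPKM at 150 µg/d, against 2492.0, 1191.7 and 96.9 RPKM without infusion. The WT log2 fold change was 0.96 ± 1.5 (limma, adjusted p = 0.853). The difference of the responses, Gcg-/- minus WT, was 2.96 ± 2.12 and did not pass (limma, adjusted p = 0.661). Library 20, the infused Gcg-/- library with the low fibrinogen values, was also the lowest of its group for Saa1. The library with the most Saa1 in its group was also the one with the most Fga, Fgb and Fgg in 5 of the 6 groups, and the one with the most C4b and Cpb2 in all 6. Over the list, 8 of 38 genes (21.1%) shared the highest library with Saa1 in at least 5 groups, as did 165 of 11590 tested genes (1.42%). The 8 include Fga, Fgb and Fgg, beside which Saa1 was chosen, so this count is not independent of that choice. For the lowest library, 19 of 38 (50%) shared it in at least 4 groups, as did 896 of 11590 (7.73%). Saa1 was lowest of its group in libraries 4 and 13, which stood apart above, at 46.4 and 40.8 RPKM. Of the list, 16 of 38 genes were also lowest of their own group in both, as were 1714 of 11590 tested genes (14.8%). Both libraries count towards the 4 groups, and their part in the 50% was not tested.

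**Figure D5:**
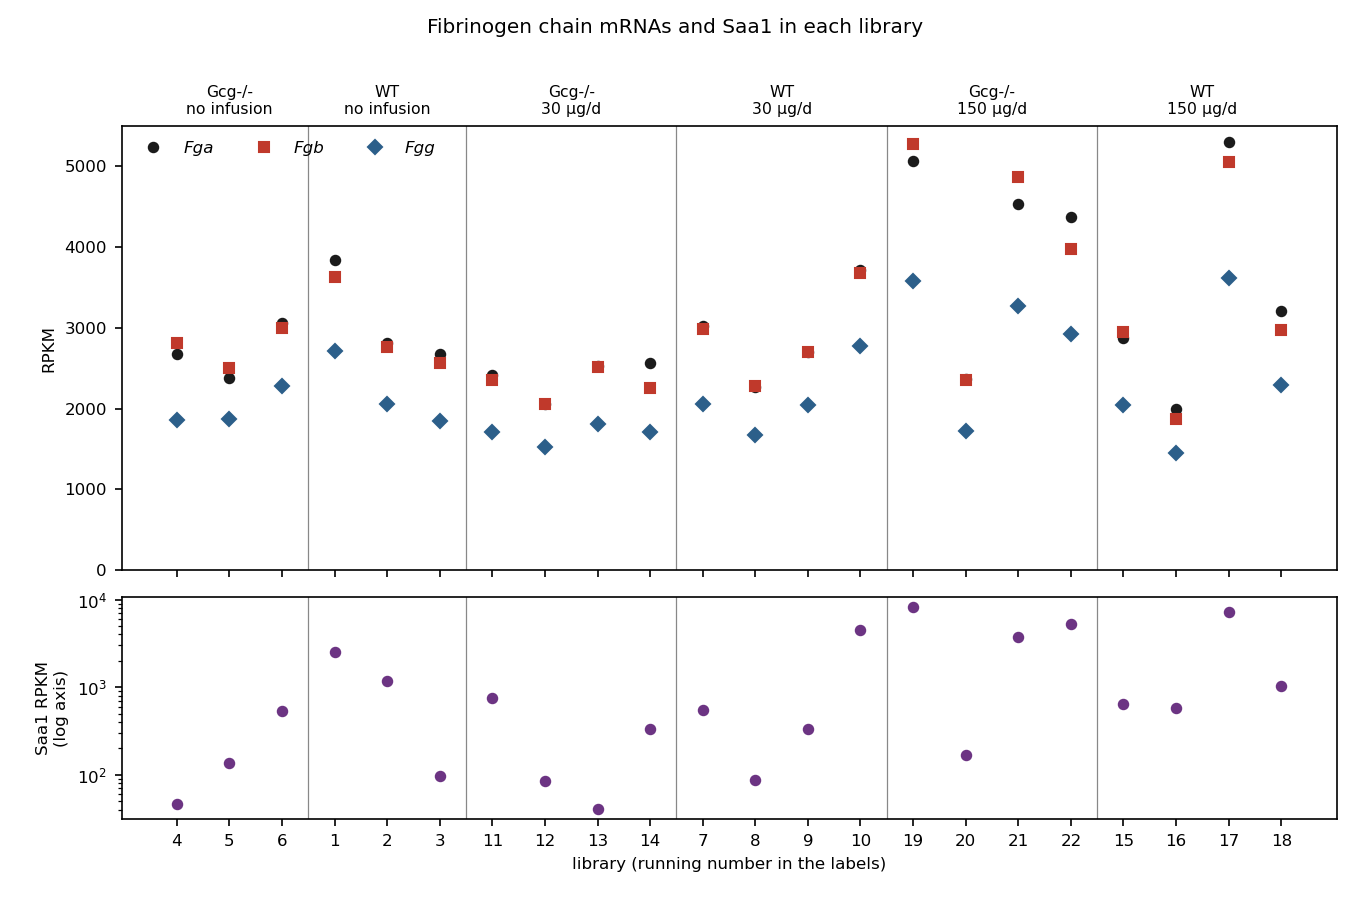
RPKM of Fga, Fgb and Fgg (upper panel, linear axis from 0) and of Saa1 (lower panel, log axis) in each of the 22 libraries, grouped by genotype and glucagon dose. Fga and Fgb lie on top of each other with Fgg below them in every library, and in Gcg-/- liver at 150 µg/d library 20 is low for all 4 genes, with Saa1 at 169.4 RPKM.

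The rest of the complement list gave values but no call at 150 µg/d in Gcg-/- liver. C3 averaged 2823.5 ± 696.9 RPKM in infused and 2097.7 ± 291.2 RPKM in uninfused Gcg-/- liver, with a log2 fold change of 0.40 ± 0.20 (limma, adjusted p = 0.297). C8a averaged 372.3 ± 50.3 and 267.4 ± 94.7 RPKM, with 0.54 ± 0.20 (limma, adjusted p = 0.153), which was 0.20 ± 0.16 without library 4. C4b, Hc and Mbl1, another mannose-binding lectin, had log2 fold changes of 0.43, 0.45 and 0.39 (limma, adjusted p = 0.288, 0.237 and 0.395). Without library 4 they were 0.15, 0.24 and 0.09. Cfb, the alternative pathway protease factor B, averaged 598.0 ± 132.3 and 529.0 ± 52.7 RPKM, and C2, its classical pathway counterpart 87 bases away on chromosome 17, averaged 59.3 ± 9.5 and 53.8 ± 7.09 RPKM. The ratio of C2 to Cfb ranged from 0.09 to 0.16 over the 22 libraries.

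Several coagulation genes varied little between libraries. F2, which encodes prothrombin, lay between 650.3 and 757.3 RPKM in all 22 libraries, and F12, the factor XII of the contact system, between 185.8 and 215.3 RPKM. The residual SD of F2 was 0.040 log2 units, rank 1 of 11590 tested genes from the smallest, with F12 at rank 18 and Proc, which encodes protein C, at rank 45. The rank of F2 was 1 with a pseudocount of 0.1, 6 under median-of-ratios scaling, 436 with a pseudocount of 5 and 815 after quantile normalization. Steadiness was not shared by all coagulation genes, with residual SDs of 0.32 for F11 and 0.38 for Fga, nor was it theirs alone, with 0.10 for C1ra and 0.11 for Masp2. C6 had the largest residual SD of the list, 1.045 log2 units, at rank 11507. Over the whole list the median residual SD was 0.18 log2 units, with 18 of 38 genes below the median of all tested genes.

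At 150 µg/d in Gcg-/- liver, F2 averaged 727.8 ± 20 RPKM in infused and 677.3 ± 29.6 RPKM in uninfused libraries, with no overlap but a log2 fold change of only 0.10 ± 0.07 (limma, adjusted p = 0.423), which turned to -0.09 after quantile normalization. Proc averaged 204.4 ± 8.51 and 224.8 ± 3.52 RPKM, also without overlap, with -0.14 ± 0.07 (limma, adjusted p = 0.31). Antithrombin (Serpinc1) averaged 1005.9 ± 83.7 and 844.6 ± 30 RPKM, with 0.25 ± 0.12 (limma, adjusted p = 0.264). In all, 7 of the 38 genes did not overlap in that comparison, F11, F2, Masp2 and Serpinc1 higher and C1ra, F13b and Proc lower, against 13.5% of all tested genes. Factor VII (F7), factor IX (F9), factor X (F10), factor V (F5) and the heparin cofactor Serpind1 had log2 fold changes between -0.04 and 0.15 there.

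In the contact system, prekallikrein (Klkb1) averaged 85.7 ± 11.2 and 87.7 ± 6.91 RPKM and Kng1 1780.5 ± 379.1 and 1784.2 ± 394.7 RPKM in infused and uninfused Gcg-/- liver at 150 µg/d. Kng1 has a close copy, Kng2, between which reads could have been divided. F11 and Klkb1 are neighbours 4.63 kb apart on chromosome 8, and their ratio ranged from 0.25 to 0.59 over the 22 libraries. In fibrinolysis, Plg averaged 1041.9 ± 133.9 and 1006.5 ± 50.2 RPKM, the plasmin inhibitor Serpinf2 309.9 ± 57.2 and 331.8 ± 42.3 RPKM, and Cpb2, the carboxypeptidase that protects fibrin from plasmin, 289.9 ± 85.4 and 237.9 ± 39.8 RPKM. None of these passed the test.

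Over the 30 genes of the list with a promoter in the RefSeq table, searched on both strands from 250 bases before to 50 after the start, CTGGGA was found in 17 (56.7%), against 31.8% of all 32851 promoters. TTGCNNAA was found in 10 (33.3%, against 10.8%) and GTTAAT also in 10 (33.3%, against 7.1%). The core TGACG was found in 7 (23.3%, against 20.8%), which includes the 1 gene with the full palindrome TGACGTCA, Cpb2 (3.33%, against 1.79%), and CAAAGTCCA, a site of HNF4, in 0 (against 0.475%). The genes Kng1, Plg, Cfb, C4b, Cfi, Proc, C2 and Masp1 were not searched.

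Other genes of the same systems were taken from lists. Of 27 tested complement genes outside the list, Cd55, the decay-accelerating factor that protects cell membranes, was called higher in Gcg-/- than in WT liver without infusion. It was at 7.57, 7.45 and 6.9 RPKM in Gcg-/- liver, against 4.32, 4.5 and 5.37 RPKM in WT liver, with a log2 fold change of 0.54 ± 0.13 (limma, adjusted p = 0.0401). The call ended without library 1, 2, 3, 4, 5, 14 or 21, with adjusted p-values of up to 0.154, and also without the filter on low values (0.06), without libraries 4 and 13 together (0.141) and with the groups fitted alone (0.0642). None of the 27 passed in the 4 comparisons of a dose with no infusion. None of 5 vitamin K cycle genes passed in any of the 5 comparisons.

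Of 22 tested coagulation and fibrinolysis genes outside the list, 1 was called higher and 1 lower at 150 µg/d in Gcg-/- liver, and none in the other 4 comparisons. F3, tissue factor, the cell-surface trigger of coagulation, was at 1.61, 1.57, 1.66 and 2.03 RPKM in infused libraries, against 2.91, 3.02 and 3.14 RPKM in uninfused ones, with a log2 fold change of -0.57 ± 0.11 (limma, adjusted p = 0.0132). Habp2, a plasma serine protease that can activate factor VII, was at 79, 81, 82.8 and 84.1 RPKM, against 63.2, 65.4 and 69.4 RPKM, with 0.30 ± 0.08 (limma, adjusted p = 0.0419). For both genes the groups did not overlap. The call of F3 ended only with the groups fitted alone (adjusted p = 0.113), and that of Habp2 also without library 1, 2, 3, 4, 5, 8, 14, 20, 21 or 22, with adjusted p-values of up to 0.197.

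Of 16 hepatocyte transcription factors, Stat3 was called higher at 150 µg/d in Gcg-/- liver, at 41.8 ± 5.34 RPKM in infused and 23 ± 3.16 RPKM in uninfused libraries (log2 fold change 0.83 ± 0.13, limma, adjusted p = 0.00373). Nr1i2, the pregnane X receptor, was called higher in Gcg-/- than in WT liver without infusion (27.2 ± 3.64 and 18.5 ± 0.909 RPKM, 0.52 ± 0.12, limma, adjusted p = 0.0314) and higher at 150 µg/d than without infusion in WT liver (32.4 ± 2.69 and 18.5 ± 0.909 RPKM, 0.77 ± 0.11, limma, adjusted p = 0.00625). Of 23 acute phase and interleukin-6 signalling genes, Orm2, an orosomucoid, passed at 150 µg/d in Gcg-/- liver. It was at 537.8, 65.3, 1040.1 and 1489.0 RPKM, against 12.7, 32.8 and 57.8 RPKM, with a log2 fold change of 4.01 ± 1.07 (limma, adjusted p = 0.0494), a call that ended without any 1 of 17 libraries, by adjusted p-values of up to 0.206, and also with a pseudocount of 5 (0.0554), without the filter (0.0963) and with the groups fitted alone (0.183). The median of that list was 0.81 with 21 of 23 above 0, against 0.15 for the 38 genes described here. In WT liver at 150 µg/d its median was 0.58 with 20 of 23 above 0, against 0.11 for the 38 genes. Stat3 and Orm2 had log2 fold changes of 0.32 ± 0.13 and 1.85 ± 1.07 there (limma, adjusted p = 0.339 and 0.51). The difference of the responses between the genotypes passed for neither gene (limma, adjusted p = 0.367 and 0.652). Of 15 other secreted plasma proteins, the vitamin D-binding protein Gc was called higher in Gcg-/- than in WT liver without infusion (4207.1 ± 364.5 and 3188.6 ± 78.8 RPKM, 0.40 ± 0.10, limma, adjusted p = 0.0452) and lower at 150 µg/d than without infusion in Gcg-/- liver (3127.9 ± 213.1 and 4207.1 ± 364.5 RPKM, -0.43 ± 0.09, limma, adjusted p = 0.0186). In the latter comparison the 15 genes had a median log2 fold change of -0.33, with 3 above 0. The genotype call of Nr1i2 ended without library 1, 2, 3 or 4 and with the groups fitted alone (adjusted p = 0.0851), and its dose call without library 3 (adjusted p = 0.0839). The genotype call of Gc ended without any 1 of 18 libraries, without the filter (adjusted p = 0.146), after quantile normalization (0.399), when scaled by medians of ratios (0.061) and with the groups fitted alone (0.243). The call of its fall ended without library 4, 5, 21 or 22, without the filter (adjusted p = 0.0837), after quantile normalization (0.0945) and with the groups fitted alone (0.242). The call of Stat3 ended only with the groups fitted alone (adjusted p = 0.118).

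Markers of other liver cells were called in the same comparisons. Of 12 sinusoidal endothelial markers, 3 (Cdh5, Pecam1 and Tek) were called lower at 150 µg/d in Gcg-/- liver and 5 (those 3 with Lyve1 and Stab2) higher in Gcg-/- than in WT liver without infusion. Leaving out library 4 ended each of these calls but that of Tek at 150 µg/d, with adjusted p-values of 0.102 to 0.214, and fitting the groups alone ended all of them (0.0631 to 0.178). Leaving out library 2 or 3 also ended the 5 genotype calls. Their summed level was 144.2 to 165.7 RPKM in Gcg-/- liver at 150 µg/d, 174.3 to 187.1 RPKM in uninfused Gcg-/- liver and 134.5 to 148.3 RPKM in uninfused WT liver. None of 12 Kupffer cell, 12 stellate cell, 3 tested cholangiocyte and 1 tested lymphocyte markers passed. Kupffer cell markers summed to 226.7 to 398.6, 350.9 to 373.2 and 235.4 to 317.5 RPKM and stellate cell markers to 187.8 to 205.6, 192.1 to 204.1 and 147.4 to 163.7 RPKM in the same 3 groups, and no marker was at 0 throughout a group. Cholangiocyte markers summed to 23 to 98.8, 60.3 to 177.2 and 16.4 to 32.8 RPKM there, nearly all of it Spp1 (osteopontin), at 19.6 to 96.2, 58.4 to 174.6 and 14.3 to 30.6 RPKM, while Krt19 was at no more than 1.35 RPKM. Hepatocyte markers summed to 26383.3 to 39830.5, 39828.3 to 69335.4 and 36996.7 to 41443.6 RPKM. Most of that sum was Alb, with a log2 fold change of -0.78 ± 0.25 at 150 µg/d in Gcg-/- liver (limma, adjusted p = 0.104). Apoa1 and Ttr had -0.58 ± 0.17 and -0.55 ± 0.16 (limma, adjusted p = 0.0729 and 0.0692). Apob had 0.04 ± 0.15 and Hnf4a 0.23 ± 0.15 (limma, adjusted p = 0.927 and 0.417), and the median over the 5 markers was -0.55. Though none was called, 12 of 12 Kupffer cell markers had a log2 fold change above 0 in uninfused Gcg-/- against WT liver (median 0.48). At 150 µg/d in Gcg-/- liver 0 of 12 did (median -0.27). For stellate cell markers it was 11 of 12 (median 0.28) and 7 of 12 (median 0.05). For endothelial markers it was 12 of 12 (median 0.36) and 0 of 12 (median -0.25). The part of all these cells and of the hepatocyte markers in the calls of C1ra, Masp2 and F13b was not tested.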

How the data were processed

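Per the labels' protocols, RNA from flash-frozen liver was extracted with Trizol, polyA RNA was selected on beads and strand-specific libraries were made with a KAPA kit. CASAVA 1.8.2 and FastQC, with the build GRCm38, appear in the submitters' processing notes. Which aligner, counter and annotation were used, and whether strand was, is not given in the sources used here. The authors deposited RPKM values for 24475 genes, 1 column per library, with no replicates pooled. RPKM summed to 558222 to 596386 per library, and no pair of columns was identical.

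The members and all gene lists were chosen with earlier results of these data known. Genes with a mean of at least 0.5 RPKM over the 22 libraries were tested with limma 3.58.1 in R 4.3.3 on log2(RPKM + 1), with a pseudocount of 1, a mean-variance trend, the 6 groups in one fit (16 residual and 3.18 prior degrees of freedom) and Benjamini-Hochberg adjustment over all 11590 genes. There were 11 contrasts, 5 against an uninfused group, 4 others and 2 interactions. The fit was checked on simulated data with independent noise. That check set no standard for recovering changes as small as those called on the list.

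Depth was estimated from the whole-read steps of 5728 genes with 1 annotated transcript. Between 63.1 and 69.8% of low values were whole within 0.1 read, where chance gives 20%. Each total was the best fitting one within a preset range, kept narrow so that no multiple of it could be taken. The totals therefore depend on that range, and the 20% makes no allowance for picking the best fit. They are estimates, so no count test was run.

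Values in every library are given for the genes of the list called in any of the 5 contrasts against an uninfused group, and for the 3 largest fold changes in each of those contrasts with no call; library values of fibrinogen, Cfi, Saa1, the other-list genes and the genes low in libraries 4 and 13 were added after the values were seen. From the other lists, genes called in those 5 contrasts are named, with Gcg and Gcgr. Gene positions and promoters are RefSeq's on GRCm38.p6, and the promoters of 30 of the 38 genes were matched. Alternatives were pseudocounts of 0.1 and 5, a minimum mean of 2 RPKM or none at all, scaling by medians of ratios, quantile normalization, quality weights per library, each contrast fitted on its own groups, each library left out, and libraries 4 and 13 left out together.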

Additional observations from a re-analysis of the deposited data

Results flagged for a closer look

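Of 152 combinations of a gene of the list with a group of 4 libraries, 6 had a library far from the other 3, by a gap that took a larger share of the group's range than Dixon's 95% critical value. Chance flags about 1 in 20 such groups. C1ra in Gcg-/- liver at 30 µg/d was at 159.4 RPKM in library 13, against 193.4 to 195.5 RPKM in the others. Mbl2 was at 314.0 RPKM in the same library, against 187.8 to 203.9 RPKM. In Gcg-/- liver at 150 µg/d, C4bp was at 332.6 RPKM in library 20, against 393.2 to 397.4 RPKM, and F11 at 41.7 RPKM in library 22, against 36.7 to 37.1 RPKM. In WT liver at 150 µg/d, F9 was at 87.3 RPKM in library 15, against 67.9 to 69.4 RPKM, and Serpinf2 at 351.0 RPKM in library 17, against 245.8 to 254.6 RPKM. Groups of 3 libraries were not searched, so the low C6 and C9 values of library 4 are not among these.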

How the results depend on the processing

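The number of genes of the list called at 150 µg/d in Gcg-/- liver against no infusion was 3, and it was 1 under median-of-ratios scaling, 1 without libraries 4 and 13 (C1ra), 0 when the 2 groups were fitted alone, and 0 to 3 with each library left out. For 150 against 30 µg/d in Gcg-/- liver it was 1, and 0 under median-of-ratios scaling, quantile normalization and the groups alone, 4 with quality weights and 0 to 2 with each library left out. For uninfused Gcg-/- against WT liver it was 0, and 2 with quality weights and 0 to 1 with each library left out. For 150 µg/d against none in WT liver it was 0, and 1 with quality weights. Quality weights also raised the calls over all 11590 tested genes, from 179 to 945 between the uninfused genotypes. These calls rose from 34 to 438 at 150 µg/d in WT liver and from 63 to 541 for 150 against 30 µg/d in Gcg-/- liver. The signs of C1ra, Masp2 and F13b held in every alternative run, with log2 fold changes of -0.47 to -0.36, 0.32 to 0.43 and -0.58 to -0.40 when each library was left out. The log2 fold change of C6 in uninfused Gcg-/- against WT liver ran from -1.77 to 0.34 and that at 30 µg/d in Gcg-/- liver from -0.16 to 1.95 when each library was left out. It turned to 0.34 in the first without library 4, and without libraries 4 and 13, and to -0.16 in the other without library 4. At 150 µg/d in Gcg-/- liver C6 ran from -0.13 to 1.97 in the same way and turned to -0.13 without library 4, and without libraries 4 and 13, and F2 to -0.09 after quantile normalization. Over all tested genes the calls at 150 µg/d in Gcg-/- liver were 315 (1 to 770 over the alternatives) and without infusion between the genotypes 179 (9 to 945). Of the 315, 152 were higher and 163 lower, against 227 and 119 under median-of-ratios scaling and 202 and 131 after quantile normalization. No paired analysis was possible because each library has its own number in the labels. With 3 or 4 libraries a group and estimated depth only, changes of the size of the spread between libraries could not be resolved.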
